A study of Rattus norvegicus with 30 samples.

Results

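The report covers 379 exons that were well covered in all 3 brain regions of a rat study of traumatic brain injury (TBI). An exon was taken as a member when its summed count over the 10 libraries of a region was 100 or more in each of the 3 regions, cortex, hippocampus and thalamus. The exon table of each region had 247818 rows for 216689 Ensembl exon identifiers, and 31129 rows repeated an identifier with equal counts. The threshold was met by 610 identifiers in cortex, 3104 in hippocampus and 3728 in thalamus, and by 477 in all 3 regions. Identifiers with equal counts in every library were kept once, which left the 379 members. The choice was therefore made from the summed counts, so that levels and differences of level between regions are given below as descriptions with no test.

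Adult male Sprague-Dawley rats of 330 to 371 g received a lateral fluid-percussion injury or the same anaesthesia and surgery without the impact. Rats 1 to 5 were sham-operated and rats 6 to 10 had TBI. At 3 months after the operation the ipsilateral thalamus, the ipsilateral hippocampus and the perilesional cortex were dissected, so that each of the 6 groups of region and treatment had 5 libraries from 5 rats. The labels describe the hippocampal tissue as dentate gyrus with part of CA3. The counts are of captured DNA and not of RNA, so the tissues could not be checked against the levels of marker genes.

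In methyl-binding domain sequencing (MBD-seq), sheared DNA is captured on a protein that binds methylated CpG dinucleotides, and the captured fragments are sequenced. A count over an exon therefore rises with its methylation, its number of CpG sites, its length and the number of genomic copies to which the reads can align. CpG methylation is laid down and maintained by DNA methyltransferases, and the exons of many genes are methylated in adult brain. In the sentences below a level is the count of an exon scaled to the exon total of its library (counts per 1000000, CPM), with each identifier counted once. Exon lengths were not used, so levels were compared between libraries for the same exon, and the order of different exons is an order of counts and not of methylation.

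Each library held few exon counts. The exon tables summed to 232485 to 484228 counts per library in cortex, 295581 to 511369 in hippocampus and 564998 to 996028 in thalamus. The median member had 7 to 29 counts in a cortex library, 16 to 35 in a hippocampus library and 23 to 48 in a thalamus library. The cortex limited the choice, since it gave the lowest summed count for 300 of the 379 members, compared with 53 for the hippocampus and 26 for the thalamus. Members just inside the threshold were ENSRNOE00000339063 with 100 counts in the cortex, ENSRNOE00000468954 with 100 in the hippocampus and ENSRNOE00000029396 with 101 in the cortex, and ENSRNOE00000218054, ENSRNOE00000287780 and ENSRNOE00000320910 fell just outside it with 99 counts each in the cortex.

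Over the members, 4 libraries stood apart from the others of their region: cortex of sham rat 4, cortex of TBI rat 6, hippocampus of sham rat 5 and thalamus of TBI rat 6. They were set apart by the members that were low in the hippocampus. The 10 members with the lowest hippocampus level relative to the cortex summed to 1661 to 2820 CPM in the other 8 cortex libraries, 224 to 848 CPM in the other 9 hippocampus libraries and 1105 to 1756 CPM in the other 9 thalamus libraries. In the cortex of rat 4 they summed to 501 CPM and in the cortex of rat 6 to 354 CPM, both inside the hippocampus range. In the hippocampus of rat 5 they summed to 2539 CPM, inside the cortex range, and in the thalamus of rat 6 to 412 CPM. The 10 members with the highest hippocampus level relative to the cortex set apart only some of these libraries. The cortex of rat 4 (15743 CPM) and the thalamus of rat 6 (4696 CPM) lay above the others (995 to 9370 and 1500 to 3335 CPM). The cortex of rat 6 (8357 CPM) and the hippocampus of rat 5 (9504 CPM) lay inside the range of the others (995 to 9370 and 2584 to 20572 CPM). Results that moved with these libraries are given below also without them, and the part of tissue composition, sample identity or capture in them was not tested. That setting kept the cortex libraries of TBI rat 10 and sham rat 1, which differed most from their replicates. Their exon counts were 5.92 and 9.53% of their promoter counts, the lowest percentages of the 30 libraries.

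**Figure D1:**
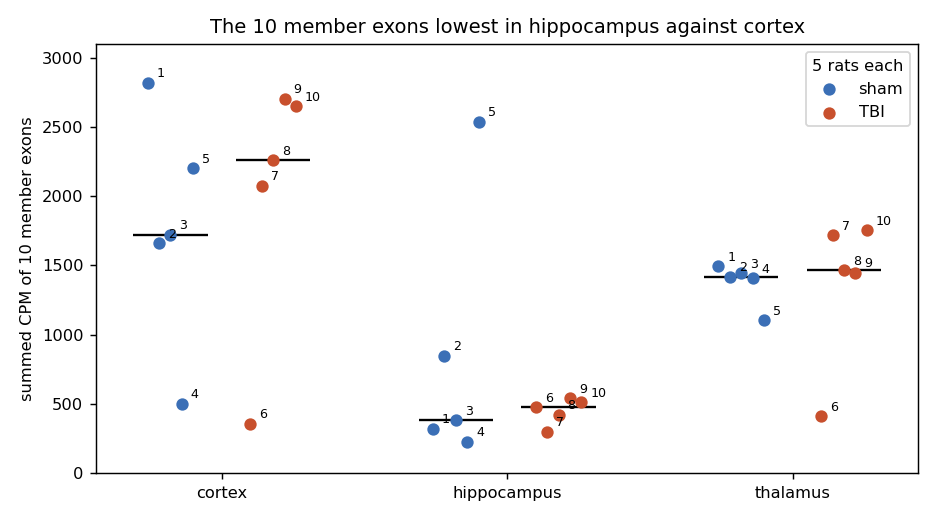
Summed level in CPM of the 10 members that were lowest in hippocampus relative to cortex, for each of the 30 libraries. Points are libraries labelled with the rat number, blue for sham and red for TBI, and black lines are group medians. Rats 4 and 6 in the cortex (501 and 354 CPM) lay with the hippocampus libraries, rat 5 in the hippocampus (2539 CPM) lay with the cortex libraries, and rat 6 in the thalamus (412 CPM) lay below the other thalamus libraries.

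The members held a large part of the exon counts for their number. With identifiers of equal counts taken once, they took 4.57 to 11.7% of the exon counts of a cortex library (median 6.67%), 7.11 to 13.0% of a hippocampus library (median 11.4%) and 6.30 to 11.8% of a thalamus library (median 7.01%). The highest cortex shares were those of rats 6 and 4, at 11.7 and 11.1%, the lowest hippocampus share was that of rat 5, and the highest thalamus share was that of rat 6. Apart from these 4 libraries, the hippocampus shares lay above all cortex and thalamus shares. Within the members the counts were concentrated, and the 10 members with the highest level held 33.0% of the member counts in cortex, 39.6% in hippocampus and 29.9% in thalamus.

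**Figure D2:**
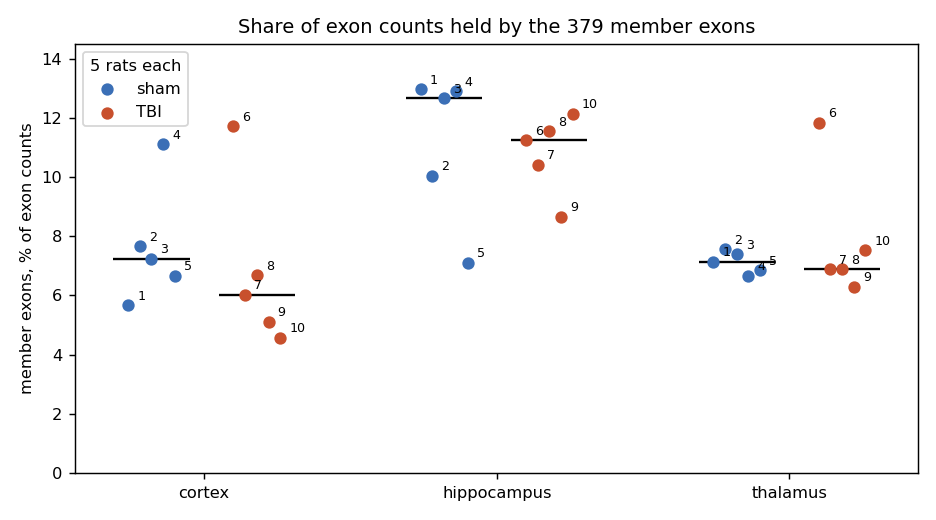
Share of the exon counts of each library that fell in the 379 members, in percent, by region and treatment. Points are libraries labelled with the rat number and black lines are medians of 5 rats. The hippocampus share reached 13.0%, and the libraries that stood apart were the highest in cortex (11.7 and 11.1%) and thalamus (11.8%) and the lowest in hippocampus (7.11%).

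The exon identifiers were not paired with gene symbols or positions in the tables, so members are named by their identifier. A link to genes was available only through equal counts. The counts of 180 of the 379 members (47.5%) were equal in all 30 libraries to those of a row of the gene body table, compared with 2641 of 36542 other exons (7.23%) with 100 or more counts over the 30 libraries. For 152 of these members the match was 1 exon to 1 gene, and for the rest several exons or genes shared the counts. A promoter window from 5000 bp upstream to 200 bp downstream of the start site could be matched through the gene identifier for 73 members. The promoter window held at least as many counts as the exon in every library for 73 of 73, and the exon count came to 0.531 to 86.4% of the promoter count (median 8.49%).

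Many members did not carry separate information. Of the 379 members, 61 stood for 159 identifiers with equal counts, up to 7 identifiers for 1 member. Of the 379 members, 44 had the same counts as another member in every library of both the cortex and the hippocampus but not in the thalamus, and 8 of these were among the 61, whereas in the thalamus 2 members shared all their counts. The methods refer to the RNA sequencing, where the thalamus was read on another instrument than the cortex and hippocampus, whereas the labels name the Genome Analyzer IIx for every library, so that region and sequencing run cannot be told apart. When members were joined at a Pearson correlation of 0.95 or more of their log2 levels over the 30 libraries, 95 members fell into 37 groups. The largest group had 11 members and 24 identifiers, with a lowest pairwise correlation of 0.85, and took 0.786 to 3.47% of the exon counts of a cortex library, 1.54 to 3.69% of a hippocampus library and 1.27 to 3.90% of a thalamus library. Near-identical copies or overlapping exons could share reads in this way, and counts of such members were not treated as replicates of each other.

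Member levels spanned more than 2 orders of magnitude. The mean CPM of the median member was 55.5 in cortex, 68.7 in hippocampus and 48.6 in thalamus, and the highest mean was 5653, 11676 and 3923 CPM. The coefficient of variation over the 10 libraries had a median of 45.6% in cortex, 30.4% in hippocampus and 28.4% in thalamus. These medians were 35.9, 26.4 and 23.8% when the libraries that stood apart were left out. The spread was thus largest in the cortex, where members also had the fewest counts (median 16 per library, compared with 25 and 29.5). The parts of depth, library and rat in it were not tested. The cortex of TBI rat 10 had the lowest level of all cortex libraries for 171 of 379 members, and the hippocampus of rat 5 was the lowest for 158. The cortex of rat 4 was the highest for 131 members and the thalamus of rat 6 for 167.

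The member with the highest level was ENSRNOE00000454889, with 5653 ± 3348 CPM in cortex, 11676 ± 5081 in hippocampus and 1072 ± 399.6 in thalamus (mean ± SD, n = 10). In the cortex the sham rats 1 to 5 had 3686, 7775, 5906, 12988 and 6299 CPM and the TBI rats 6 to 10 had 5381, 6180.3, 5324, 226 and 2767 CPM. In the hippocampus the sham rats had 12614, 12219.9, 15468, 17118 and 8047 CPM and the TBI rats 6963, 15458, 15026, 554 and 13290.4 CPM. Rat 9 was far below every other rat in both regions, and hippocampus levels exceeded cortex levels in each rat. In the thalamus the sham rats had 1212, 1240.5, 1230.3, 1198 and 1562 CPM and the TBI rats 1013, 659, 1297, 138 and 1173 CPM, and again rat 9 was the lowest.

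The second was ENSRNOE00000490057, whose counts equalled those of the gene body ENSRNOG00000050259. It had 3303 ± 1543 CPM in cortex, 5385 ± 1321 in hippocampus and 3923 ± 766 in thalamus. Its cortex levels were 1938, 3736, 3426, 6344 and 3118 CPM in the sham rats and 4964, 3063, 2991, 2771 and 679.9 CPM in the TBI rats, with rat 10 the lowest. The next 8 members were ENSRNOE00000467203, ENSRNOE00000510642, ENSRNOE00000493761, ENSRNOE00000463212, ENSRNOE00000468619, ENSRNOE00000474676, ENSRNOE00000501455 and ENSRNOE00000473205, with means over the 3 regions from 2218 down to 1619 CPM. Of these, 5 belonged to the largest group of correlated members and another 2 to a second group. ENSRNOE00000493761 and ENSRNOE00000463212 had equal counts in the cortex and hippocampus, with 1698 ± 912 and 3065 ± 896 CPM. In the cortex, ENSRNOE00000467203 ranged from 1015 to 1362 CPM in TBI rats 7 to 10 and was 3269 CPM in rat 6, and the sham rats had 1120.0, 1687, 1588, 2849 and 1399 CPM.

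The members with the steadiest level were ENSRNOE00000465569, ENSRNOE00000500525 and ENSRNOE00000468084, with a coefficient of variation of 13.2, 15.3 and 15.8% as the mean of the 3 regions. ENSRNOE00000465569 had 1224 ± 265 CPM in cortex, 1466 ± 172 in hippocampus and 1145 ± 70.1 in thalamus. In the thalamus it ranged only from 989 to 1216 CPM over the 10 rats, and the libraries that stood apart lay inside the range of the others in all 3 regions. ENSRNOE00000500525 (gene body ENSRNOG00000042971) had 468 ± 78.1, 447 ± 61 and 353 ± 54.9 CPM. ENSRNOE00000468084 (gene body ENSRNOG00000047210) had 298 ± 56.8, 254 ± 33.2 and 104 ± 15.8 CPM, and all of its thalamus levels lay below its cortex and hippocampus levels. At the other end were ENSRNOE00000399967, ENSRNOE00000498739 and ENSRNOE00000509204, with 142, 108 and 107%.

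Levels were highest in the hippocampus for 244 of the 379 members, in the thalamus for 73 and in the cortex for 62, and they were lowest in the thalamus for 217 members, in the cortex for 88 and in the hippocampus for 74. Without the 4 libraries that stood apart, the hippocampus was highest for 244, the cortex for 76 and the thalamus for 59, and the thalamus was lowest for 188, the cortex for 118 and the hippocampus for 73. The order of thalamus and cortex turned with the denominator. In counts scaled to the promoter total, the hippocampus was highest for 265, the thalamus for 104 and the cortex for 10, and the cortex was lowest for 214, the thalamus for 123 and the hippocampus for 42. The median log2 ratio of mean CPM was 0.44 for hippocampus over cortex, -0.19 for thalamus over cortex and -0.54 for thalamus over hippocampus. Without the 4 libraries that stood apart these medians were 0.67, -0.10 and -0.66. Scaled to the promoter total, the median was 0.82 for hippocampus over cortex and 0.27 for thalamus over cortex, which changed its sign. The cortex of TBI rat 10 had the highest promoter total of the cortex libraries (3992056 counts), and its part in this was not tested. For hippocampus and cortex the levels of the 10 and 10 libraries overlapped for all 379 members, against a background of 0.0804% of 11192 identifiers with 100 or more counts that were separate and higher in the hippocampus and 0.0625% that were separate and lower. Without the libraries that stood apart 48 members were separate and higher in the hippocampus (12.7%) and 19 were separate and lower (5.01%), where the background was 3.88% and 1.21% of the 11192 identifiers. Nothing is read from these shares, since the members were chosen by their counts in the same libraries and exons with more counts separate more easily.

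For hippocampus and thalamus, 38 members (10.0%) were separate and higher in the hippocampus and 13 (3.43%) were separate and lower with all libraries, and the background was 1.26% and 0.441% of 25385 identifiers. Without the libraries that stood apart these were 107 and 29 members, with a background of 4.18% and 1.19%. For thalamus and cortex, 11 members were separate and higher in the thalamus and 12 were separate and lower, with a background of 0.523% and 0.176% of 18181 identifiers. Without the libraries that stood apart these were 15 and 17 members, with a background of 0.677% and 0.325%. The animals were the same in the 3 regions, and the threshold in each region had removed exons found in 1 region alone.

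**Figure D3:**
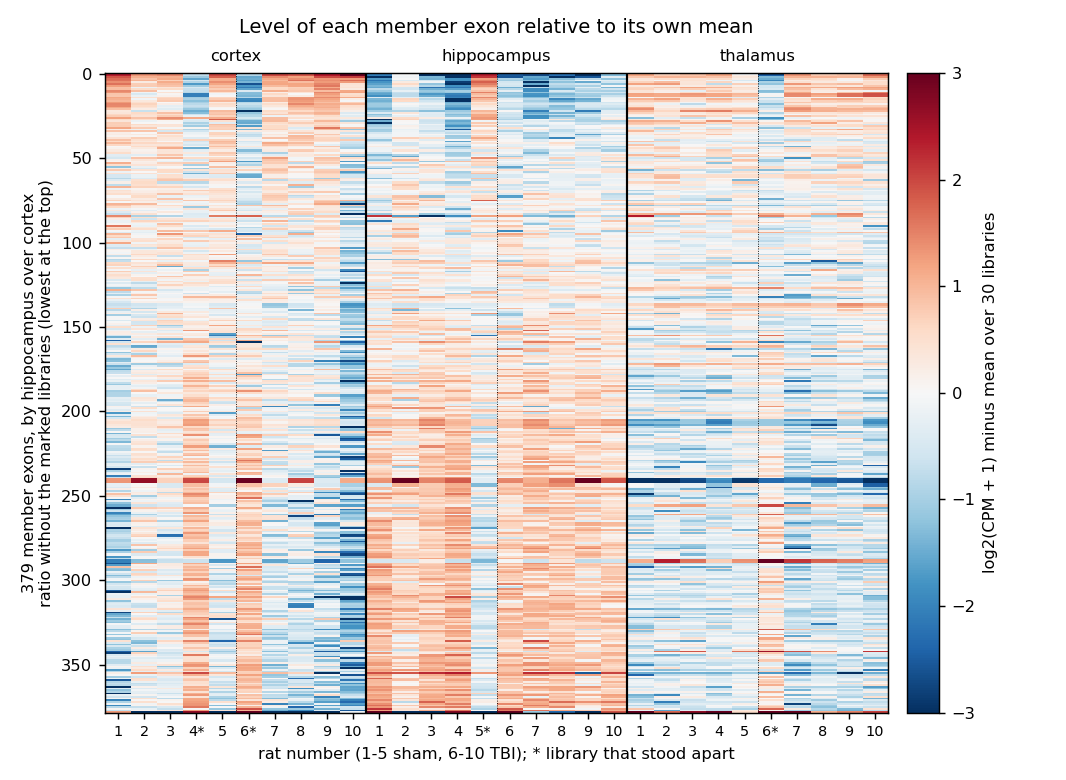
Level of each of the 379 members in the 30 libraries, as log2(CPM + 1) minus the mean of that exon over all libraries, from blue (lower) to red (higher). Columns are rats 1 to 10 in cortex, hippocampus and thalamus, with an asterisk on the 4 libraries that stood apart, and rows are ordered by the hippocampus over cortex ratio without those libraries. The rows at the bottom are red in the hippocampus and paler in its rat 5, and cortex rats 4 and 6 resemble the hippocampus columns in the top and bottom rows.

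The members lowest in the hippocampus relative to the cortex were ENSRNOE00000498739, ENSRNOE00000509204 and ENSRNOE00000462463, with log2 ratios of -2.32, -2.32 and -1.78. The first 2 had equal counts in the cortex and hippocampus. ENSRNOE00000498739 had 248, 122, 132, 28 and 192 CPM in the cortex of the sham rats and 25.8, 193, 178, 255 and 392 CPM in the TBI rats. In the hippocampus the sham rats had 10.5, 46.3, 2.37, 0 and 248 CPM and the TBI rats 7.39, 6.6, 9.13, 5.08 and 18.6 CPM. Rat 5 alone carried 248 CPM in the hippocampus, within the range of the cortex, and rats 4 and 6 were the lowest in the cortex. Without the libraries that stood apart the log2 ratio of hippocampus over cortex was -4.18 for ENSRNOE00000498739 and -3.24 for ENSRNOE00000462463. In the thalamus ENSRNOE00000498739 had 107, 71.8, 85.7, 105 and 44.4 CPM in the sham rats and 5.68, 119.6, 75, 83.8 and 151 CPM in the TBI rats, with rat 6 the lowest.

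The members highest in the hippocampus relative to the cortex were ENSRNOE00000494668, ENSRNOE00000496843 and ENSRNOE00000358803, with log2 ratios of 1.11, 1.07 and 1.05 with all libraries. This order changed without the libraries that stood apart, where the 3 exons had 1.72, 1.41 and 1.57 and the highest was ENSRNOE00000399967 at 3.1 (57.0 CPM in hippocampus and 6.64 CPM in cortex), compared with 0.39 with all libraries. ENSRNOE00000399967 was high in rats 1, 4 and 6. Rats 4 and 6 then left its cortex mean but stayed in its hippocampus mean, so its ratio of 3.1 compares unlike sets of rats. The number of members over 2-fold higher in the hippocampus went from 6 to 117. Those libraries were set apart by members of this same contrast, so leaving them out widens it through the choice itself. ENSRNOE00000496843 had 88.7 ± 10 CPM in the hippocampus, where all rats lay between 71.1 and 100.4 CPM, and 42.4 ± 25.9 CPM in the cortex. Its cortex levels were 4.87 to 53.4 CPM in 9 rats and 104 CPM in rat 4. ENSRNOE00000494668 had 19.5, 36.2, 41.8, 81.3 and 43.1 CPM in the cortex of the sham rats and 68.1, 10.9, 7.74, 24.7 and 4.72 CPM in the TBI rats, so that rats 4 and 6 were the highest there. In the hippocampus it had 77.3, 42.4, 71.1, 102 and 32.8 CPM in the sham rats and 99.8, 102, 75.3, 58.4 and 69.8 CPM in the TBI rats, with rat 5 the lowest.

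ENSRNOE00000463169, which stood for 7 gene bodies with equal counts, was highest in the thalamus, with 127 ± 76.5 CPM in cortex, 202 ± 72.8 in hippocampus and 962 ± 532 in thalamus. Its thalamus levels were 566, 1344, 830.2, 447 and 690.2 CPM in the sham rats and 2261, 1175, 918, 763 and 626 CPM in the TBI rats, all above the highest cortex level of 315 CPM and the highest hippocampus level of 342 CPM. Its log2 ratio of thalamus over cortex was 2.92 with all libraries, the highest of the members, and 3.05 without those that stood apart. ENSRNOE00000399967 was higher without those libraries, at 3.98 (104 CPM in thalamus and 6.64 CPM in cortex), compared with 1.78 with all libraries. It was high in rats 1, 4 and 6, and rat 4 then stayed in its thalamus mean but not in its cortex mean. Its ratio of 3.98 thus compares unlike sets of rats. ENSRNOE00000495741 (gene body ENSRNOG00000048211) had the same counts in the cortex and hippocampus and a ratio of 2.88, and ENSRNOE00000501329 had a ratio of 2.44. ENSRNOE00000503906 (gene body ENSRNOG00000046751) was also high in the thalamus against the hippocampus, with 336 ± 103 CPM and 75.9 ± 61.9 CPM, or a log2 ratio of 2.15. The highest ratio of thalamus over hippocampus when the libraries that stood apart were left out was 3.11, for ENSRNOE00000509204, compared with 1.38 with all libraries.

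At the other end ENSRNOE00000465263, ENSRNOE00000471440 and ENSRNOE00000487927 were low in the thalamus, with log2 ratios of thalamus over cortex of -4.33, -4.33 and -4.28. ENSRNOE00000487927 (gene body ENSRNOG00000046518) had 22.9, 21.9, 43.6, 78.8 and 37.7 CPM in the thalamus of the sham rats and 54.6, 62.6, 53.8, 48.3 and 15 CPM in the TBI rats. In the cortex the sham rats had 691, 1730.0, 453, 1106 and 192 CPM and the TBI rats 2171, 215, 1149, 209.6 and 604 CPM. In the hippocampus the sham rats had 709, 2194, 787, 994 and 222 CPM and the TBI rats 761, 594, 842, 3066 and 1029 CPM. Every cortex and hippocampus level lay above every thalamus level, although the cortex and hippocampus levels differed by more than an order of magnitude between rats. The 3 exons had nearly the same counts and are 1 observation.

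A few members had a level that followed the rat through all 3 regions. With a limit of 2-fold from the median of the other rats in every region, 8 members met it for at least 1 rat, in 4 pairs of exon and rat that were lower and 8 that were higher. Over all members the correlation between regions across the 10 rats was low, with a median Pearson's r of 0.11 for cortex and hippocampus, 0.34 for cortex and thalamus and -0.01 for hippocampus and thalamus. These are given as a description, since the libraries that stood apart enter them. The same rat had the lowest level of all 3 regions for 11 members, 7 of them in rat 9, and the highest for 8 members, 4 of them in rat 6. No share over all exons was taken for these counts or for the 8 members at the 2-fold limit, and some members share counts. Such agreement also arises by chance, and how often was not worked out, so nothing is read from the counts.

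The clearest was ENSRNOE00000454889, where TBI rat 9 had 226 CPM in cortex, 554 CPM in hippocampus and 138 CPM in thalamus. The other 9 rats had 2767 to 12988 CPM, 6963 to 17118 CPM and 659 to 1562 CPM, so rat 9 did not overlap with them in any region. ENSRNOE00000399967 was high in rats 1, 4 and 6. These rats had 39.0 to 235 CPM in cortex, 111 to 196 CPM in hippocampus and 185 to 406 CPM in thalamus, and the other 7 rats had 0 to 14.2, 0 to 60.5 and 22.9 to 158 CPM. Of the other 7 rats, 6 had a count of 0 in the cortex and 4 in the hippocampus, but none in the thalamus, where libraries were deeper. A count of 0 at this depth does not show that a level is 0.

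ENSRNOE00000474676, which stood for 4 gene bodies, was high in rat 6, with 5222 CPM in cortex, 5067 CPM in hippocampus and 4643 CPM in thalamus. The other rats had 506 to 1441 CPM in the cortex and 553 to 2474 CPM in the thalamus, and in the hippocampus 732 to 6215 CPM, where rat 1 was higher than rat 6. ENSRNOE00000396336 was high in rats 1, 6 and 9, with 45.2 to 91.5, 43.2 to 119 and 65.4 to 141 CPM, and overlapped with rat 5 in the cortex and hippocampus. ENSRNOE00000484739 was lowest in rat 6 in each region, with 2.35, 18.5 and 6.82 CPM. Rats 4 and 6 are those of 3 of the 4 libraries that stood apart, and the part of those libraries in this pattern was not tested.

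**Figure D4:**
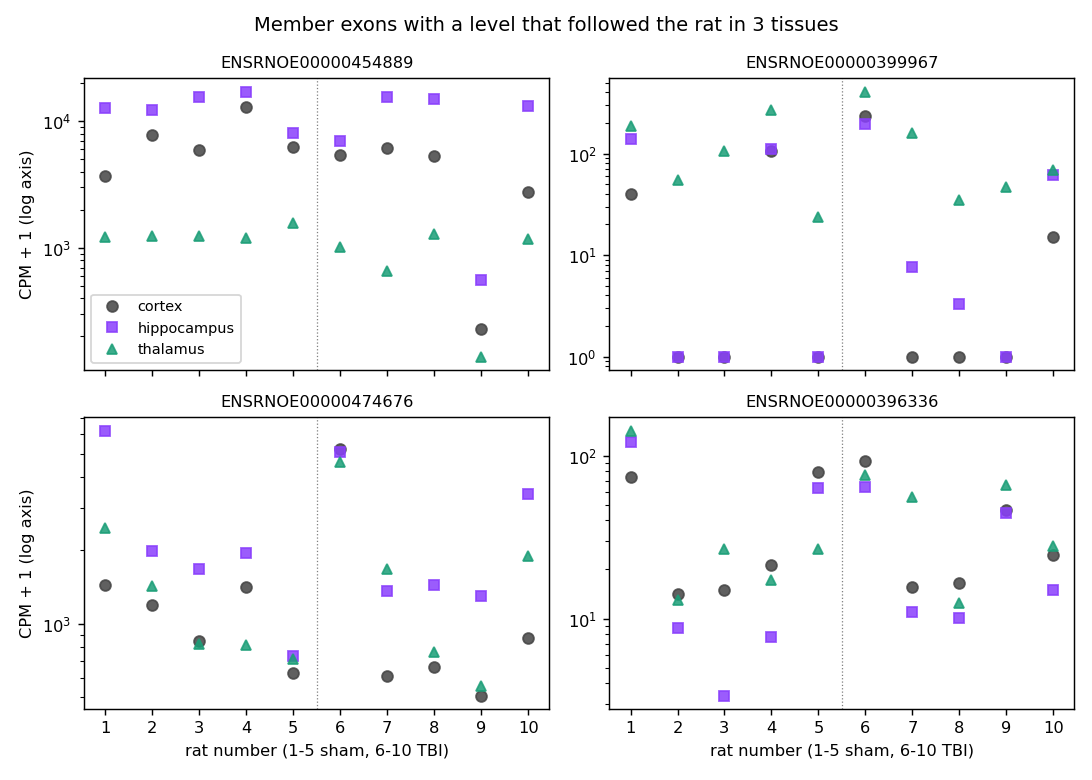
Level of 4 members in each rat, as CPM + 1 on a log axis, with circles for cortex, squares for hippocampus and triangles for thalamus. Rats 1 to 5 were sham-operated and rats 6 to 10 had TBI. ENSRNOE00000454889 was low in rat 9 in all 3 regions (226, 554 and 138 CPM), and ENSRNOE00000399967 was high in rats 1, 4 and 6.

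TBI was compared with sham in each region by the quasi-likelihood test of edgeR over all exon rows that passed its filter on low counts, and p-values were adjusted over all of these rows. In the perilesional cortex, 566 rows were tested, 317 of the 379 members among them, and the 62 members left out had summed counts of 100 to 152. No row had an adjusted p under 0.05 (0% of 566), and 1 row, a member, had an unadjusted p under 0.05 (0.177%), which was lower in TBI. DESeq2 on the same rows gave 0 calls and 0 unadjusted p under 0.05, and limma gave 0 calls and 6 members at an unadjusted p under 0.05 (1.89% of members, 2.12% of rows). The member log2 fold changes of TBI over sham ran from -0.81 to 0.68 with a median of -0.09, and the median over all rows tested was -0.02. When promoter totals were taken as library size, the 2 medians were -0.33 and -0.24, so both moved in the same direction. The cortex of TBI rat 10 had 3992056 promoter counts, and the other cortex libraries had 1862708 to 2516686. The part of this library in the shift was not tested. The sign of the member median depended on the setting. It was 0.13 without rat 10 (255 members higher and 104 lower), 0.10 without rat 4, 0.05 without rat 3 and 0.01 with DESeq2. The median over all rows was then 0.08 to 0.12. Under the other alternatives the member median was negative.

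The cortex member with the smallest p was ENSRNOE00000348014 (gene body ENSRNOG00000038308). It had 53.6, 75.6, 101, 129.6 and 74.4 CPM in the sham rats and 79.8, 43.7, 58, 53.4 and 23.6 CPM in the TBI rats. The groups overlapped, the log2 fold change was -0.67 with an SE of 0.29, and the edgeR adjusted p was 0.9996 (unadjusted p = 0.0399). The next lower in TBI were ENSRNOE00000496774 at -0.63 and ENSRNOE00000474242 at -0.68, with unadjusted p of 0.0554 and 0.0560 in the edgeR fit. Those with the smallest p among members higher in TBI were ENSRNOE00000320345, ENSRNOE00000332061 and ENSRNOE00000462223, with log2 fold changes of 0.39, 0.41 and 0.41 and edgeR unadjusted p of 0.146, 0.212 and 0.282. One member had groups that did not overlap, ENSRNOE00000463914, with 48.7 to 75.6 CPM in sham and 28.2 to 47.3 CPM in TBI, and the background was 0.492% of 610 identifiers separate and lower in TBI and 0% separate and higher. Its log2 fold change was -0.58 with an edgeR adjusted p of 0.9996, and its separation in the cortex was picked out with the values known. Without the libraries of rats 4 and 6, 9 members were separate and lower in TBI and 0 were separate and higher, where the background was 1.8% and 0% of 610 identifiers.

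The count of members at an unadjusted p under 0.05 in the cortex depended on the rats. It was 9 without rat 6, of which 8 were lower in TBI (2.79% of members, 3.45% of rows), where 13 of the 21 rows were higher and 8 lower. It was 3 without rat 1, all lower (0.847% of members), where 5.79% of rows passed and 36 of these 39 rows were higher. It was 2 without rat 4 (0.625% of members, 0.329% of rows), and without rats 2, 3, 5 or 10 it was 0 for members and rows. Without rats 4 and 6 in the cortex, the unadjusted p was under 0.05 for 6 of 280 members tested. Of these, 4 were higher in TBI and 2 lower, where the background was 3.26% of 552 rows (2.72% higher and 0.543% lower), and no row had an adjusted p under 0.05.

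In the hippocampus, 3582 rows and 370 members were tested. No row had an adjusted p under 0.05 (0% of 3582). The unadjusted p was under 0.05 for 14 members (3.78%), 3 higher and 11 lower in TBI, and for 147 of all rows (4.1%, or 1.95% higher and 2.15% lower), so the share of members was near the background. DESeq2 gave 0 calls and 13 members at an unadjusted p under 0.05 (3.51% of members, 3.15% of rows), and limma gave 0 calls and 16 members (4.32% of members, 5.61% of rows). The member log2 fold changes ran from -1.34 to 0.64 with a median of -0.05, compared with -0.02 over all rows. Without sham rat 5, whose hippocampus library stood apart, 9 members were higher and 9 lower at an unadjusted p under 0.05, of 375 tested, with a background of 4.53% of 7129 rows (2.3% higher and 2.23% lower). Then 7 rows had an adjusted p under 0.05 (0.0982%), none of them a member, and the median member log2 fold change was 0.04. Without rat 1 the count was 26, of which 25 were lower in TBI (6.95% of members, 4.08% of rows). Without rat 4 it was 29, of which 28 were lower (7.80% of members, 5.11% of rows), and without rat 9 it was 7 (1.88% of members, 3.44% of rows). Over all rows that passed, 150 of 267 were lower without rat 1 and 87 of 139 without rat 4. The members are part of these rows and some share counts, so nothing is read from the difference.

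The hippocampus member with the smallest p was ENSRNOE00000474242, lower in TBI. The sham rats had 45.7, 57.8, 45, 33.3 and 94.7 CPM and the TBI rats 22.2, 9.9, 20.5, 20.3 and 41.9 CPM. The TBI rat 10 reached the range of the sham rats, and sham rat 5 was the highest. The log2 fold change was -1.28 with an SE of 0.42 and an edgeR adjusted p of 0.911 (unadjusted p = 0.0048), and it was -0.81 with an unadjusted p of 0.0219 without rat 5. The next lower in TBI were ENSRNOE00000463914 at -0.85 and ENSRNOE00000506363 at -1.20. ENSRNOE00000463914 had 98.3, 139, 133, 57.7 and 40.1 CPM in the sham rats and 59.1, 59.4, 45.6, 43.2 and 62.8 CPM in the TBI rats, with sham rat 4 inside the TBI range and sham rat 5 below it.

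Members with the smallest p among those higher in TBI in the hippocampus were ENSRNOE00000346640 at a log2 fold change of 0.64, ENSRNOE00000496774 at 0.61 and ENSRNOE00000467418 at 0.63, with edgeR unadjusted p of 0.0222, 0.0389 and 0.0419 and adjusted p of 0.9995 each. ENSRNOE00000496774 had 59.7, 61.7, 47.4, 37.7 and 51 CPM in the sham rats and 107, 99, 79.9, 68.6 and 65.2 CPM in the TBI rats, and the groups did not overlap. In the cortex the same exon had 82.8, 62.5, 101, 63.5 and 78.3 CPM in the sham rats and 37.5, 47.3, 69.6, 57.5 and 28.3 CPM in the TBI rats, with the TBI rats lower and the groups overlapping. Of the 379 members, 2 were separate and higher in TBI in the hippocampus, ENSRNOE00000496774 and ENSRNOE00000509785, and 1 was separate and lower, ENSRNOE00000471319, where the background was 0.515% and 0.0322% of 3104 identifiers. Without rat 5 these were 2 and 2 members, with a background of 0.548% and 1.22%. The last 2 exons were picked out with their values known.

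Calls among the members appeared under 1 setting in the hippocampus. When every row with at least 1 count was tested, 22 of 174987 rows had an adjusted p under 0.05 (0.0126%), and 2 of these were members, ENSRNOE00000498739 and ENSRNOE00000509204, both lower in TBI with a log2 fold change of -2.46, an SE of 0.43 and an edgeR adjusted p of 0.000124. Their hippocampus counts were equal, and sham rat 5 alone had 248 CPM, where the other 4 sham rats had 0 to 46.3 CPM and the TBI rats 5.08 to 18.6 CPM. Without rat 5 the log2 fold change under the same setting was -0.33 and the adjusted p was 0.881. Under the filter on low counts both exons were left out in the hippocampus, as 2 of the 9 members not tested there.

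In the thalamus, 4716 rows and 377 members were tested. No row had an adjusted p under 0.05 (0% of 4716), and the unadjusted p was under 0.05 for 3 members, 2 higher and 1 lower in TBI, and for 129 rows (2.74%, or 1.31% higher and 1.42% lower). DESeq2 gave 0 calls and 4 members at an unadjusted p under 0.05 (1.06% of members, 1.68% of rows), and limma gave 0 calls and 13 members (3.45% of members, 3.18% of rows). The member log2 fold changes ran from -0.74 to 1.01 with a median of 0.02, compared with -0.01 over all rows. Without rat 6, whose thalamus library stood apart, 7 of 4530 rows had an adjusted p under 0.05 (0.155%), all higher in TBI, and none of them was a member. The unadjusted p was then under 0.05 for 16 of 376 members, 14 higher and 2 lower in TBI, with a background of 3.82% (2.25% higher and 1.57% lower). The count was 13 without rat 9 (3.43% of members, 3.14% of rows) and 5 without rat 2 (1.32% of members, 2.83% of rows).

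The thalamus member with the smallest p was ENSRNOE00000356301 (gene body ENSRNOG00000028690), higher in TBI. The sham rats had 9.53, 7.98, 13.5, 20.2 and 16.1 CPM and the TBI rats 43.2, 22.8, 19.6, 25.6 and 27 CPM. The TBI rats were the higher group, with 1 TBI rat just below the highest sham rat. The log2 fold change was 1.01 with an SE of 0.31, and the edgeR adjusted p was 0.998 (unadjusted p = 0.00371). Without rat 6 it was 0.88. In the cortex the same exon had 19.5, 42.8, 24.4, 89 and 43.1 CPM in the sham rats and 56.3, 21.9, 27.1, 16.4 and 14.2 CPM in the TBI rats, which overlapped widely. The next higher in TBI were ENSRNOE00000503328 at 0.54 and ENSRNOE00000465552 at 0.55.

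Members lower in TBI with the smallest p in the thalamus were ENSRNOE00000461659, ENSRNOE00000503170 and ENSRNOE00000466416, with log2 fold changes of -0.74, -0.72 and -0.53 and edgeR unadjusted p of 0.0201, 0.0518 and 0.0796. ENSRNOE00000461659 had 70.5, 59.8, 66.2, 36.4 and 36.3 CPM in the sham rats and 28.4, 32.3, 27.7, 44 and 28.5 CPM in the TBI rats. Its groups overlapped through rats 4, 5 and 9. No member was separate between TBI and sham in the thalamus, where the background was 0.161% of 3728 identifiers separate and higher in TBI and 0.107% separate and lower. Without rat 6, 3 members were separate and higher and 3 were separate and lower, with a background of 0.617% and 0.805%. Over the 3 regions, 18 members had an unadjusted p under 0.05 in 1 region and none in 2 regions or more, and 311 members were tested in all 3. No share over all exons was taken for these counts, so nothing is read from the lack of overlap.

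**Figure D5:**
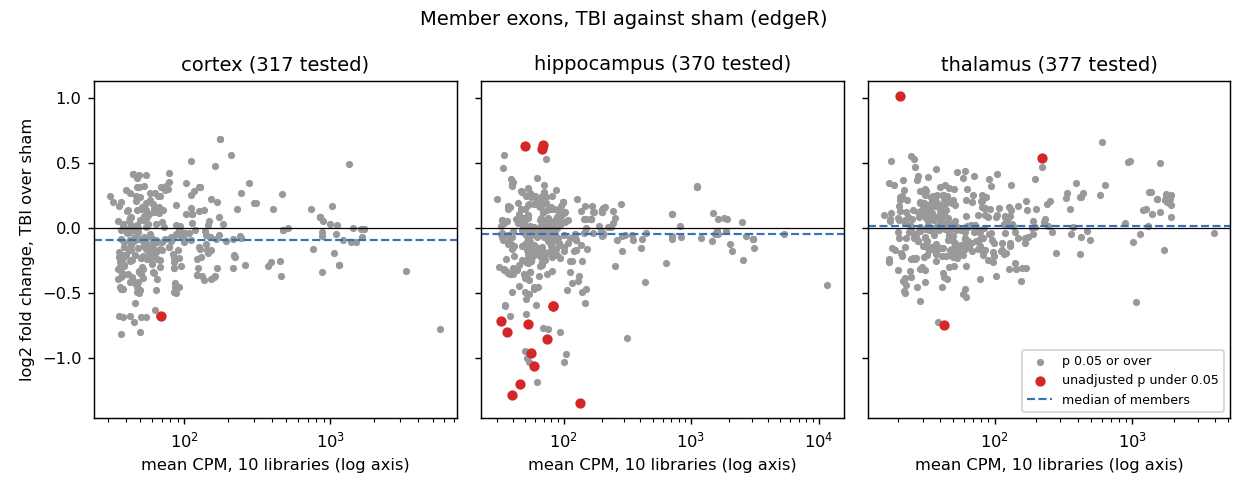
Log2 fold change of TBI over sham against mean CPM over 10 libraries (log axis) for the members tested in cortex (317), hippocampus (370) and thalamus (377). Red points have an unadjusted p under 0.05 in the edgeR fit (1, 14 and 3 members), no member had an adjusted p under 0.05, and the dashed line is the median of the members. The medians lie at -0.09, -0.05 and 0.02.

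The 10 members with the highest level were also compared singly, by exact two-sided permutation tests of log2(CPM + 1) over the 252 assignments of 5 and 5 rats, for which the smallest possible p is 0.00794. None of the 30 tests had a p under 0.05, the smallest exact p was 0.0794, for ENSRNOE00000454889 in the thalamus, and the adjusted p over the 30 tests was 0.976 for each. The means of ENSRNOE00000454889 were 7331 CPM in sham and 3976 CPM in TBI in cortex, 13093 and 10258 CPM in hippocampus and 1289 and 856 CPM in thalamus. In the edgeR fit its log2 fold change was -0.78 in the cortex with an SE of 0.63, -0.44 in the hippocampus with an SE of 0.46 and -0.57 in the thalamus with an SE of 0.37. Without rat 9 these were -0.41, -0.13 and -0.30, so that each value was smaller without 1 rat.

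For ENSRNOE00000474676 the fold change turned with rat 6. Its log2 fold change was 0.49 in cortex, 0.05 in hippocampus and 0.50 in thalamus, and -0.51, -0.38 and 0.07 without that rat. None of these values had an adjusted p under 0.05 in edgeR, and the lowest over them was 0.804, in the cortex without rat 6. ENSRNOE00000490057 had means of 5404 CPM in sham and 5366 CPM in TBI in the hippocampus and 3941 and 3905 CPM in the thalamus, with log2 fold changes of -0.04 and -0.03 and an SE of 0.27 and 0.25.

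Whether the effect of TBI differed between regions was tested as the interaction of region and treatment in edgeR, on identifiers taken once, and all 379 members were tested for each pair. No identifier had an adjusted p under 0.05 for hippocampus and cortex (0% of 2386), thalamus and cortex (0% of 3799) or hippocampus and thalamus (0% of 9501). The unadjusted p was under 0.05 for 8, 1 and 8 members, with a background of 3.06%, 2.87% and 3.86%. With the rat as a block, since the same rats gave each region, 0 identifiers had an adjusted p under 0.05 for each pair and 4, 1 and 2 members had an unadjusted p under 0.05, where 3.14, 2.63 and 3.27% of all identifiers did. Without the libraries that stood apart, 6, 7 and 9 members had an unadjusted p under 0.05, with a background of 4.08%, 3.57% and 4.02%. Leaving out 1 rat from both regions moved these counts. For hippocampus and cortex it gave 16 members without rat 1 (4.22% of members, 5.83% of identifiers). All 16 had a negative difference, as did 113 of the 175 identifiers. Leaving out 1 rat also gave 14 without rat 6 (3.69 and 5.92%) and 12 without rat 4 (3.17 and 3.11%). It gave 5 without rats 7, 8, 9 or 10, 4 without rat 2 and 2 without rat 5, which were 0.528 to 1.32% of members, where 2.93 to 3.22% of identifiers passed. For thalamus and cortex it gave 8 without rat 6 (2.11% of members, 4.85% of identifiers), 3 without rat 8 (0.792 and 2.48%) and 2 without rats 4 or 7 (0.528% of members, 2.67 and 3.35% of identifiers). For hippocampus and thalamus it gave 27 without rat 6, of which 26 had a negative difference (7.12% of members, 4.44% of identifiers), and 24 without rat 4, of which 21 did (6.33 and 4.34%). It gave 13 without rat 1 (3.43 and 3.91%), 5 without rat 9 (1.32 and 3.79%) and 4 without rat 5 (1.06 and 4.11%).

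For hippocampus and cortex the members with the smallest p were ENSRNOE00000383908, ENSRNOE00000498739 and ENSRNOE00000509204, with differences of log2 fold change of -1.12, -3.93 and -3.93. The last 2 moved to -1.19 without the libraries that stood apart, and ENSRNOE00000383908 moved to -0.73. ENSRNOE00000383908 had 19.5, 39.5, 17.4, 38.1 and 35.3 CPM in the cortex of the sham rats and 93.9, 32.8, 34.8, 32.9 and 14.2 CPM in the TBI rats, where rat 6 was the highest. In the hippocampus it had 70.2, 61.7, 54.5, 64.3 and 36.4 CPM in the sham rats and 44.3, 29.7, 54.8, 43.2 and 37.2 CPM in the TBI rats. For thalamus and cortex the members were ENSRNOE00000356301, ENSRNOE00000465717 and ENSRNOE00000465552, with differences of 1.5, 0.83 and 0.83. For hippocampus and thalamus they were ENSRNOE00000474242 at -1.68 and, again, ENSRNOE00000509204 and ENSRNOE00000498739 at -3.07 each, which moved to -0.71 and -0.72 without the libraries that stood apart. ENSRNOE00000474242 kept a difference of -1.54 without them. The adjusted p of every one of these members was 0.999 or more in edgeR.

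The promoter windows of the 73 members with a gene identifier gave a second readout that the choice of members had not used directly, although a window can hold its exon. All 73 were tested in each region in the same kind of fit over the promoter table. None had an adjusted p under 0.05, and 0, 1 and 0 had an unadjusted p under 0.05 in the cortex, hippocampus and thalamus. Their median log2 fold change of TBI over sham was -0.15 in the cortex, with a range of -0.71 to 0.24, -0.01 in the hippocampus (-0.43 to 0.23) and 0.13 in the thalamus (-0.10 to 0.35). The sign equalled that of the exon for 46 of 60 members tested in cortex, 39 of 73 in hippocampus and 50 of 73 in thalamus. Exon positions were not known, so shared reads were possible but not checked. The medians of windows and member exons also had the same sign in each region, which by itself favours equal signs. No share over all promoter windows was taken for the counts of windows or of equal signs, and nothing is read from them.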

How the data were processed

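DNA from 3 regions of 10 rats was enriched for methylated fragments (MethylMiner) and sequenced. The authors aligned the reads to Rnor_5.0 with STAR, without splicing, and deposited raw counts per exon, gene body and promoter (5000 bp upstream to 200 bp downstream of the start site), made with Repitools in R 3.1.0. How reads that align to several copies were treated is not given in the sources used here. Replicates were not pooled and no count column was left out. Libraries differed beyond sampling noise (lowest chi-square per degree of freedom 1.49). It was largest for pairs with the cortex of TBI rat 10 (46.5 to 66.7) and of sham rat 1 (20.9 to 27.1). All other pairs were at 12.7 or below. The cortex libraries of rats 10 and 1 were kept where the 4 libraries that stood apart were left out.

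Repeated identifiers and equal rows were kept once for levels, and CPM was taken over identifiers counted once. TBI was compared with sham in edgeR 4.0.16 (R 4.3.3; filterByExpr with a minimum count of 10 and a minimum total of 15, TMM, quasi-likelihood test) on every row of the exon table, with Benjamini-Hochberg adjustment over all rows tested and a threshold of 0.05. DESeq2 1.42.0, limma 3.58.1, other library sizes and filters, and leaving out each rat were alternatives. The fits were tested on simulated counts of all rows that passed the filter, not of the members alone. Of 50 rows changed 2-fold, 44 were tested and 5 called in the cortex. In the hippocampus 36 were tested and 19 called, and in the thalamus 34 were tested and 8 called. Among unchanged rows of the same simulations, 2, 8 and 4 were called. Descriptions used Python 3.11.15 with pandas 2.3.3.

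The rat numbers in the labels name the same animals in the 3 regions, so they pair the libraries. Over the 379 members the deviations of the same rat from the group means were compared between regions. The median r was 0.16 (cortex with thalamus), 0.19 (cortex with hippocampus) and 0.11 (thalamus with hippocampus), and single rats ranged from -0.23 to 0.82. Over all identifiers with 100 or more counts in the pair the medians were 0.0070, 0.012 and -0.00094. Different rats were not compared and some members share counts, so these values are a description and the pairing rests on the labels. Named exons were the 10 of highest level, the 3 with the smallest p in each direction per comparison, the 3 with the largest and smallest ratio of each pair of regions, the 3 most and least variable and the 3 on each side of the threshold. Exons named for following a rat, and the 4 libraries that stood apart, were chosen after their values were seen. The members and lists were chosen with earlier results of these data known.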

Additional observations from a re-analysis of the deposited data

Results flagged for a closer look

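In each group of 5 rats, a value was listed here when the gap between the highest or lowest rat and the nearest other rat was a large part of the whole range (over 0.71, the 95% critical value of Dixon's test for 5 values). This was done for 72 groups of values and chance lists about 1 in 20 groups. It listed 15 values, and 10 of these came from rat 6.

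In the cortex of TBI rat 6, several of the most highly counted members stood far above the other TBI rats. ENSRNOE00000467203 had 3269 CPM (others 1015 to 1362), ENSRNOE00000510642 had 3640.0 CPM (806 to 1401), and ENSRNOE00000493761 and ENSRNOE00000463212 had 3797 CPM each (834 to 1459). ENSRNOE00000468619 had 3093 CPM (769 to 1176), ENSRNOE00000474676 had 5222 CPM (506 to 869) and ENSRNOE00000501455 had 2692 CPM (822 to 1269). ENSRNOE00000501455 was also high in the cortex of sham rat 4, at 2598 CPM (1154 to 1449). These members are correlated with each other, so the values are not separate observations.

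The summed level of the 10 members lowest in hippocampus against cortex was 354 CPM in the cortex of TBI rat 6 (others 2076 to 2705), 2539 CPM in the hippocampus of sham rat 5 (224 to 848), 412 CPM in the thalamus of TBI rat 6 (1448 to 1756) and 1105 CPM in the thalamus of sham rat 5 (1408 to 1494). The share of exon counts in members was 11.8% in the thalamus of TBI rat 6, where the other TBI rats had 6.30 to 7.54%. ENSRNOE00000474676 had 6215 CPM in the hippocampus of sham rat 1 (732 to 1990), and ENSRNOE00000454889 had 1562 CPM in the thalamus of sham rat 5 (1198 to 1240). The causes of these values were not tested.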

How the results depend on the processing

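The count of exon rows with an adjusted p under 0.05 was 0 in each comparison, and in the cortex and for thalamus and cortex it was 0 under every alternative run. In the hippocampus it was 2 with library totals, 2 with promoter totals as library size, 2 with an exact test at a common dispersion and 22 with every row of at least 1 count, of which 2 were members. It ranged from 0 to 7 when 1 rat was left out (7 without rat 5, 2 without rat 7 and 1 without rat 6). Without the library that stood apart, an alternative chosen after seeing the data, it was 7, and 24 with every row of at least 1 count. In the thalamus it ranged from 0 to 7 (7 without rat 6, the library that stood apart). With every row of at least 1 count it was 4 for the interaction of hippocampus and cortex and 4 for hippocampus and thalamus. With the rat as a replicate block it was 0 for each of the 3 interactions, and the block changed no call.

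With CPM of the promoter total, the median log2 ratio of member levels was 0.82 for hippocampus over cortex, compared with 0.44, and 0.27 for thalamus over cortex, compared with -0.19, so that the latter changed sign with the denominator. The median hippocampus share was 9.01% over all exon rows, compared with 11.4%. The fits of the exons named for their small p kept direction and side of the threshold in 188 values under other settings and 270 with 1 rat left out. These exons were picked by p in the same fits and had an edgeR adjusted p of 0.911 or more, so this was nearly fixed in advance. Of the summary counts and medians, 34 moved and 128 did not under other settings. With 1 rat left out, 34 moved and 176 did not. The causes were not tested. The low counts per exon limit what these libraries can show.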
